A study of Mus musculus with 32 samples.

Results

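The regions described here are the 487 stretches of the mouse genome that were called for Ikaros 30 min after its induction and not before it. All 8 HA-Ikaros peak lists were merged, which gave 23844 regions. A region was taken when it overlapped a peak in both 30 min lists and in neither 0 h list, so the members were selected on measured Ikaros peaks, and their absence at 0 h and presence at 30 min are no result. They made up 2.04% of the merged regions.

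The libraries came from B3, a mouse pre-B cell line originally derived from a lymphoma, transduced with a retrovirus that encodes HA-tagged Ikaros (the product of Ikzf1) joined to ERt2, a hormone-binding domain. Every group, the 0 h group included, carried this construct, which is expressed from the viral vector and not from the gene's own locus. Cells were untreated (0 h) or exposed to 500 nM 4-hydroxytamoxifen (4-OHT), which releases the fusion protein into the nucleus, for 30 min, 1 h or 2 h. HA-Ikaros, CHD4 and H3K27ac were each mapped by ChIP-seq in 2 replicates per time, which gives 24 peak lists, and the anti-HA beads target the introduced protein and not untagged Ikaros. Nothing in the labels says that replicates were separate cultures, so p-values measure the spread between these libraries, which may be technical.

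Ikaros is a zinc finger protein of lymphocytes that binds DNA words with a GGGAA core. It restrains the growth of pre-B cells, and its loss is frequent in B cell leukaemia. One of its main partners is the NuRD complex, in which CHD4 is the ATPase that moves nucleosomes and HDAC1 and HDAC2 remove acetyl groups from histones. H3K27ac, acetylated lysine 27 of histone H3, marks active promoters and enhancers and is a substrate of such deacetylases. The study mapped Ikaros and H3K27ac to learn how rapid repression is brought about, and CHD4 to explore the mechanisms behind it.

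The pre-B identity was checked by H3K27ac within 1 kb of a transcription start site (TSS). Cd79a, Cd79b, Vpreb1, Igll1, Ebf1, Pax5, Rag2 and Dntt were acetylated in 8 of 8 lists and Rag1 in 7. The T cell genes Cd3e and Cd4, the erythroid gene Gata1, the liver genes Alb and Apoa1 and the muscle genes Myod1 and Actc1 were in 0 lists, whereas Klf1, an erythroid regulator, was in 8. The Ikaros lists held 7822 and 9527 peaks at 0 h and 9181 and 5373 at 30 min. The mean coverage recovered from them was 3.59 and 3.13 fragments per base at 0 h against 2.54 and 1.98 at 30 min, which puts more fragments behind the 0 h lists than behind those of 30 min. The CHD4 lists ranged from 2488 peaks (0 h replicate 1) to 9593 (2 h replicate 2), and their depth is unknown. A region missing from a list was below that library's threshold, which does not show that it was unbound.

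DNA around the summit of the 30 min Ikaros peak is printed for 17 members, to show what the earliest new regions look like. The first 8 were the strongest at 30 min, the next 4 were called in no later Ikaros list, and the last 5 had the highest CHD4 rank at 2 h among those called for CHD4 in both 2 h lists and neither 0 h list. Each is named by the nearest TSS of a protein-coding gene, which may lie far from it. Each window holds 101 bases of GRCm38 (mm10), plus strand, 5′ to 3′. Capitals mark GGGAA, or TTCCC, which is the same word on the other strand.
Pip4k2b, chr11:97728497-97728597: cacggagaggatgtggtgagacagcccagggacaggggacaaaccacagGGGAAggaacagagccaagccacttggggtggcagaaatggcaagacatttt
Pcp4, chr16:96459185-96459285: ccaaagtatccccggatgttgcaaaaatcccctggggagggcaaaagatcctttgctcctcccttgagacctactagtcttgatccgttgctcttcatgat
Dnm3, chr1:162044243-162044343: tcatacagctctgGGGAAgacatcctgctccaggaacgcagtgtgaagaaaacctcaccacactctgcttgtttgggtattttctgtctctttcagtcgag
Bcat1, chr6:145090328-145090428: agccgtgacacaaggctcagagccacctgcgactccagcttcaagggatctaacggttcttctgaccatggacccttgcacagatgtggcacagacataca
Tgfbr2, chr9:116338339-116338439: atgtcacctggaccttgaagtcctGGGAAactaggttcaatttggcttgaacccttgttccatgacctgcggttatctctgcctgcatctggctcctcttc
Endou, chr15:97721415-97721515: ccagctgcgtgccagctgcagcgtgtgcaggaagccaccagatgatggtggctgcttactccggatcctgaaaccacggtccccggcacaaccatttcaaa
Gpat3, chr5:100853449-100853549: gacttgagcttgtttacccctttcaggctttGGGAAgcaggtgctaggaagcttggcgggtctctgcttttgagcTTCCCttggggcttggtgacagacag
Sp4, chr12:118377106-118377206: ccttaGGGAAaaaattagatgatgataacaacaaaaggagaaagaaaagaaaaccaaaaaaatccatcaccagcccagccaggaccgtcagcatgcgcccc
Tjp1, chr7:65373472-65373572: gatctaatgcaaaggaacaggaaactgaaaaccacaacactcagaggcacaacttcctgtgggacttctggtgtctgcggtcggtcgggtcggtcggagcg
Anapc16, chr10:59972708-59972808: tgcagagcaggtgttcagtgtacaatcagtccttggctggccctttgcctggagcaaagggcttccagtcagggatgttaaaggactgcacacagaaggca
Hp1bp3, chr4:138222448-138222548: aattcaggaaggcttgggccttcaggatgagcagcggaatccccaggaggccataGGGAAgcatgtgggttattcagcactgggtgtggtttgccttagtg
Dok5, chr2:171291361-171291461: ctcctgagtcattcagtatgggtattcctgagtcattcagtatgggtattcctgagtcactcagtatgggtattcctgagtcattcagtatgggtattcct
Aes, chr10:81554021-81554121: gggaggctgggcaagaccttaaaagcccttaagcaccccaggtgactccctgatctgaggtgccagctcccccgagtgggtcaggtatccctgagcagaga
Stk4, chr2:164084178-164084278: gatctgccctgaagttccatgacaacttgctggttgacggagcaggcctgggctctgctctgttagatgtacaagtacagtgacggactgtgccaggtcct
Gpc5, chr14:114946411-114946511: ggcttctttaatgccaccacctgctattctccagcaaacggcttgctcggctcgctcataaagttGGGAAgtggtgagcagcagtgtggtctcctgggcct
Chl1, chr6:103340088-103340188: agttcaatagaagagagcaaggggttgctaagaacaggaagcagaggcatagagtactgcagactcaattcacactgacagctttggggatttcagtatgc
Zfp60, chr7:27726905-27727005: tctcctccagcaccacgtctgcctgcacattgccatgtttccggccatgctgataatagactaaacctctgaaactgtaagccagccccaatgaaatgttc

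The word was in 7 of these 17 windows, with 2 matches in that of Gpat3 and 1 in those of Pip4k2b, Dnm3, Tgfbr2, Sp4, Hp1bp3 and Gpc5. The Dok5 window consisted of short units repeated in tandem, and none of its bases lay in the core word.

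Across all 487 members, 34.3% held GGGAA on either strand within 50 bases of the summit of their highest-ranked Ikaros peak, against 25.3% of windows of the same width 400 to 500 bases away. The share was 48.4% in regions called at both 0 h and 30 min, 33.9% in regions new from 1 h and 38.9% in all merged regions. The shorter word GGGA gave 73.5% in members and 86.7% in regions called at 0 h and 30 min, with 77.9% in all regions. An inverted pair of it, GGGA preceded by its reverse complement with 2 bases of any kind between them, was in 1.85% of members and 3.71% of the regions called at 0 h and 30 min, with 2.00% in all regions. The E-box CAGCTG, a word read by E proteins such as TCF3, was in 12.3% of member summits and in 3.90% of their flanks, with 11.5% in regions called at 0 h and 30 min and 9.09% in all regions. The RUNX word TGTGGT was in 12.9% of members and 10.4% of all regions, and GGGCGG, the GC box of Sp factors, in 4.93% against 9.83%. The other words searched, on both strands as all were, were GGAA (79.7% of members and 80.1% of all regions), TGGGAA (11.7% and 13.5%), the Ets word CCGGAAG (2.87% and 2.89%), the NF-Y word CCAAT (8.62% and 9.72%), the AP-1 word TGACTCA (2.87% and 1.99%) and the STAT word TTCNNNGAA (3.29% and 3.40%). These 12 words overlap, since GGGAA contains both of the words of 4 letters and is itself the end of TGGGAA, and the Ets word contains GGAA. These shares are descriptions, since the summits were placed by the Ikaros peaks that chose the members. GC content at the summits was 53.1% in members and 56.7% in regions called at 0 h and 30 min.

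Most members lay away from promoters. Their 30 min summits fell in introns (242), between genes (163), in UTRs (45), in non-coding exons (23) and in coding exons (14) of any GENCODE M21 transcript. In all, 195 members (40%, Wilson 95% interval 35.8% to 44.5%, counting error only) lay within 1 kb of a TSS of any transcript, against 50.2% of regions called at 0 h and 30 min, 57.2% of regions new from 1 h and 47.5% of all regions. Members were spread over every chromosome except Y, and 24.6% of them had a region called at 0 h and 30 min within 20 kb, against 21.5% of all regions and 28.3% of the regions called at 0 h and 30 min themselves. Their median width was 1059 bp, between the 1509 bp of regions called at 0 h and 30 min and the 744 bp of regions new from 1 h, with 595 bp over all regions. A wider region can overlap more peaks, so the comparisons of CHD4 and H3K27ac were repeated in windows of equal width.

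Members ranked lower at 30 min than regions already called at 0 h. The median fold over background at 30 min was 4.52 in replicate 1 (range 1.41 to 9.33) and 4.49 in replicate 2 (1.53 to 9.39). Ranked by fold among all peaks of their list, they averaged the percentiles 45.6 and 43.7, and regions called at both times averaged 69.3 and 59.2. The weaker of the 2 −log10 q values had a median of 3.25 and a minimum of 1.32, and 74 members had a value under 2. Just outside the rule, 676 regions in both 30 min lists were also in 1 of the 0 h lists, 178 in replicate 1 and 498 in replicate 2, with a median 0 h fold of 4.52 and −log10 q of 5.23. A further 1882 regions absent at 0 h were in the 30 min list of replicate 1 alone and 683 in that of replicate 2 alone. Conversely, 1314 regions were in both 0 h lists and neither 30 min list.

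A pair of members stood apart. The regions at chr9:35305259-35305531 and chr2:98666624-98667189 had the lowest folds in replicate 1 (1.41 and 2.01) together with −log10 p values of 330.0 and 5069, and neither was called for H3K27ac in any list. Whether the peak lists were filtered against a list of artefact-prone regions is not given in the sources used here. Both members were kept in the counts. Without them, each CHD4 and H3K27ac test on the share of regions kept its direction and its side of the threshold.

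New Ikaros regions mostly persisted. At 1 h, 402 (82.5%) were called in replicate 1 and 440 (90.3%) in replicate 2, and at 2 h 403 (82.8%) and 439 (90.1%). Of the 487, 312 (64.1%, interval 59.7% to 68.2%) were called in all 4 lists of 1 h and 2 h, against 28.2% of all merged regions, 89.1% of regions called at 0 h and 30 min and 43.8% of regions new from 1 h. Another 106 were in 3 of these lists, 53 in 2, 12 in 1 and 4 in none. Those in none made up 0.821% of members, against 9.70% of all regions and 0.232% of regions called at 0 h and 30 min. In both 1 h lists and neither 2 h list were 8 members, and 9 showed the reverse. The other counts were not made over all regions. The Ikaros lists at 1 h and 2 h were longer than those at 30 min, and the share was lower once lengths were equal. With every Ikaros list held to its 5373 strongest peaks, 28.0% of the then 632 members were in all 4 lists, against 61.5% of regions called at 0 h and 30 min and 27.2% of regions new from 1 h. Regions new from 1 h were chosen for being in both 1 h lists, so their share rests on the 2 h lists and is not like that of the members.

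**Figure D1:**
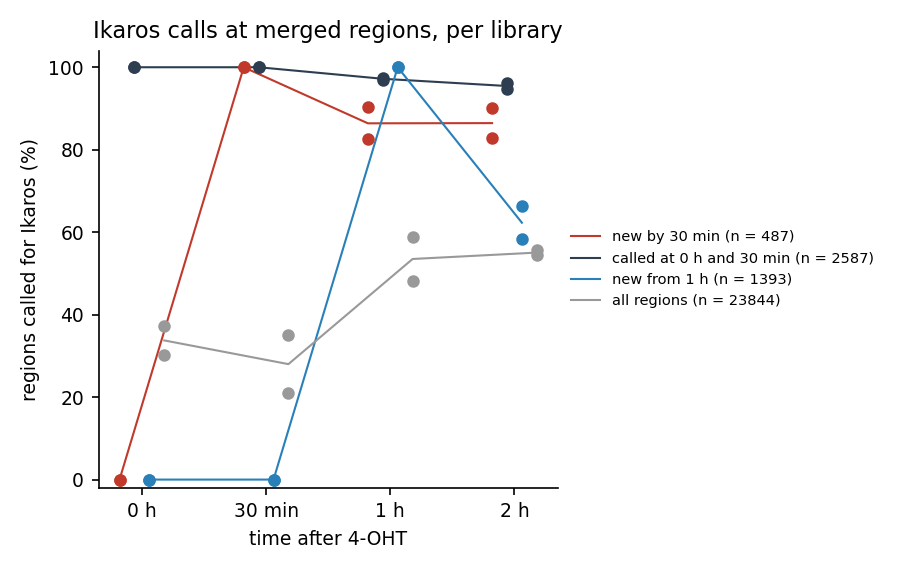
Percentage of regions called for Ikaros in each library (dots; lines join the means of 2 replicates) at 0 h, 30 min, 1 h and 2 h after 4-OHT, for 4 sets of regions. Values at 0 and 100 are fixed by how the sets were chosen; the members lie between 82.5% and 90.3% at 1 h and 2 h.

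Members with a stronger 30 min peak were found again in a larger share. In 4 bins of the members' 30 min rank, from weakest to strongest, 50%, 59.2%, 65.3% and 82.0% were in all 4 later lists. Regions called at 0 h and 30 min within the same rank limits gave 74.7%, 77.2%, 87.2% and 93.8%, above the members' share in each bin. These shares are counts over regions in the same 4 libraries, and the difference was not tested. Among promoter members 132 of 195 (67.7%) were in all 4 later lists, and among distal members 180 of 292 (61.6%).

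**Figure D2:**
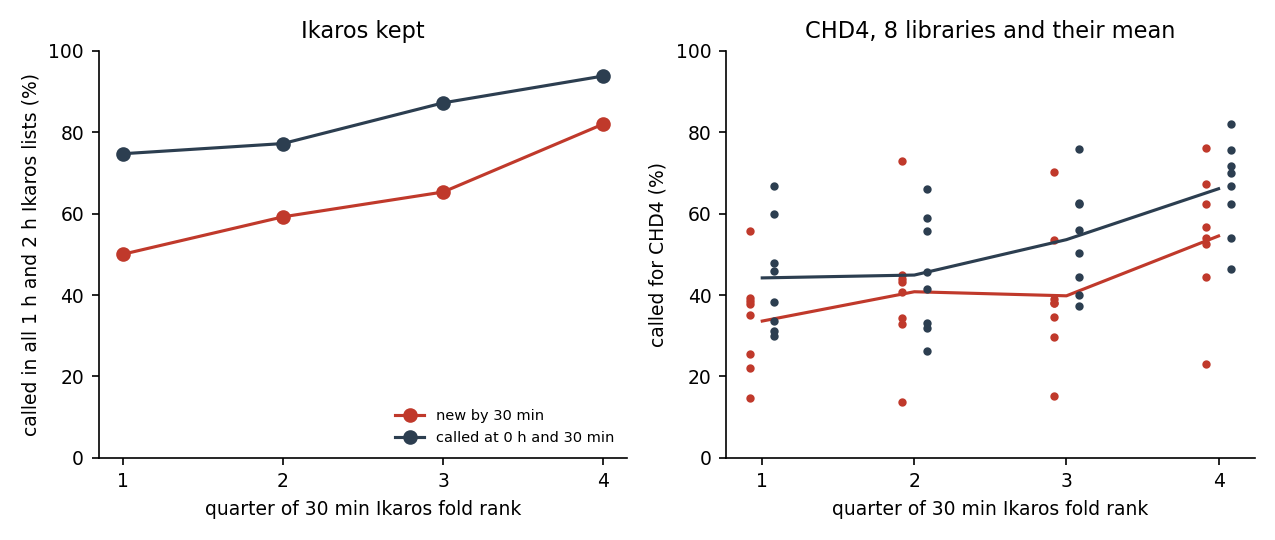
Left, percentage of regions called in all 1 h and 2 h Ikaros lists, and right, percentage called for CHD4 in each of 8 libraries (dots) with their mean (line), by bins of the members' 30 min Ikaros fold rank (1 weakest, 4 strongest). Both shares are highest in bin 4, where 82.0% of members persisted and 54.5% were called for CHD4 on average.

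The strongest member lay in an intron of Pip4k2b, a phosphatidylinositol phosphate kinase, 1804 bp from the TSS. Its Ikaros fold was 9.33 and 9.09 at 30 min, 7.39 and 6.48 at 1 h and 6.44 and 5.36 at 2 h. The intronic member at Endou, an endoribonuclease, was 303 bp from the TSS, and its fold was 7.35 and 6.96 at 30 min, 9.95 and 10.5 at 1 h and 7.0 and 11.2 at 2 h. The intergenic member nearest Bcat1, which encodes a branched-chain amino acid transaminase, read 6.43 and 9.39, then 7.15 and 8.83, then 7.79 and 7.25. Of the other 5 of the 8 strongest, those at Dnm3 and Gpat3 (an acyltransferase of lipid synthesis) lay in introns of these genes. The one nearest Pcp4, 8371 bp upstream of it, lay in an intron of Igsf5. The one nearest Tgfbr2, the type 2 receptor of TGF-β, lay 163029 bp upstream in an intron of a long non-coding RNA gene, and the one nearest the transcription factor gene Sp4 lay between genes, 75716 bp upstream. All 8 were called in each 1 h and 2 h Ikaros list and in 8 of 8 H3K27ac lists, while CHD4 was called in 2 lists at Pip4k2b and 8 at Bcat1. Folds come from lists scaled separately, so they order regions within a list and are not levels to be compared between times.

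The 4 members called in no later list lay at Tjp1, Anapc16, Hp1bp3 and Dok5, with mean 30 min percentile ranks of 53.4, 38.3, 27.3 and 7.47. The intronic region of Tjp1, which encodes the tight junction protein ZO-1, had a 30 min fold of 4.80 and 4.72 and was in 0 CHD4 and 0 H3K27ac lists. The intergenic region nearest Dok5, 559604 bp from that TSS, read 3.39 and 3.35 and was likewise in 0 lists of either target. At Hp1bp3, a gene for a histone H1-related protein, the fold was 3.67 and 4.36 with H3K27ac in 8 lists. Near Anapc16, a subunit of the anaphase-promoting complex, it was 3.96 and 4.69, and there CHD4 was in 6 lists and H3K27ac in 8.

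**Figure D3:**
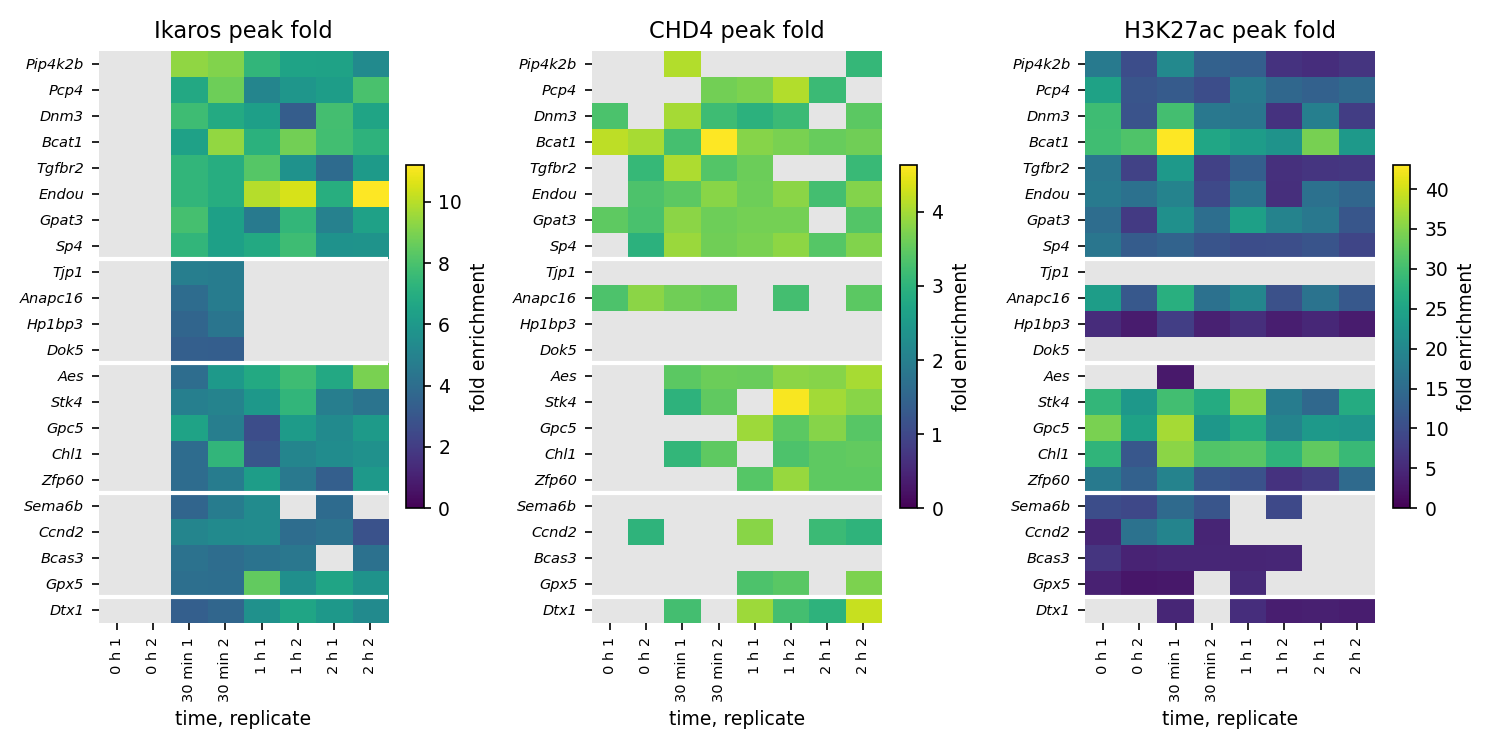
Peak fold over background in each library for named members (rows, by nearest protein-coding gene), with columns for time and replicate and grey where no peak was called. From top, the blocks are the 8 strongest at 30 min, the 4 in no later list, 5 with CHD4 in both 2 h and neither 0 h list, the 4 with H3K27ac in both 0 h and neither 2 h list, and the 1 with the reverse.

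CHD4 was already called at part of the members before Ikaros was induced. The CHD4 lists reached down to a −log10 q of 1.01, against 1.30 in the Ikaros and H3K27ac lists, so their calls were more lenient. CHD4 was called at 16.6% and 42.3% of members at 0 h (replicates 1 and 2), 40% and 36.3% at 30 min, 51.1% and 45.8% at 1 h and 36.6% and 68.8% at 2 h. Over all merged regions the shares were 10.1% and 25.4% at 0 h, 17.0% and 14.0% at 30 min, 22.9% and 20.9% at 1 h and 17.7% and 36.9% at 2 h, so their replicates differed in the same direction as those of the members at each time. The 2 replicates of the members differed most at 0 h and 2 h, where their CHD4 lists also differed most in length (2488 and 6000 peaks, then 5523 and 9593), and the 0 h and 2 h values overlapped. The trend of this share with time did not pass (Spearman's rho = 0.537, exact two-sided permutation p = 0.190, Benjamini-Hochberg adjusted p = 0.286 over 6 trends, Pearson's r = 0.617, exact p = 0.103, adjusted p = 0.206, and 0.712 without the 2 h libraries). With lists of equal length rho was 0 (exact permutation p = 1.00, adjusted p = 1.00). Seen from the other side, 3.26% and 3.45% of CHD4 peaks lay at a member at 0 h, 4.80% and 5.19% at 30 min, 4.61% and 4.46% at 1 h and 3.22% and 3.50% at 2 h. The 30 min and 1 h libraries were thus above those of 0 h and 2 h, and the trend with time did not pass (rho = −0.0976, exact permutation p = 0.861, adjusted p = 0.861, with r = −0.211, exact p = 0.579, adjusted p = 0.579, and 0.683 without the 2 h libraries).

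Regions called at both 0 h and 30 min held CHD4 more often in every library: 41.1% and 67.6% at 0 h, 61.5% and 52.9% at 30 min, 68.7% and 59.5% at 1 h and 47.4% and 77.8% at 2 h. Regions new from 1 h held it less often, from 4.16% and 18.7% at 0 h to 17.0% and 39.3% at 2 h. Over the 8 libraries the members' share minus that of the first set was −17.4 ± 6.05 percentage points (SD, n = 8; means 42.2% and 59.6%; lower in 8 of 8) and minus that of the second it was 24.5 ± 6.16 (mean 17.7%; higher in 8 of 8). For each of 8 such differences, 4 for CHD4 and 4 for H3K27ac, an exact sign-flip permutation test gave p = 0.00781, the smallest it allows, with adjusted p = 0.00781. Among peaks with a −log10 q of at least 3, both CHD4 differences kept their direction but were −8.24 and 5.50 points (adjusted p = 0.0104 each, exact test). With lists of equal length the second was 14.2 points (adjusted p = 0.00781, exact test). In windows of equal width around the summits they were −16.0 and 22.9 points. Averaged within 4 bins of 30 min Ikaros strength, the gap to the first set was smaller, at −18.4 and −21.1 points for 0 h, −11.4 and −6.08 for 30 min, −9.21 and −6.38 for 1 h and −3.77 and −3.91 for 2 h. In the second bin its sign turned in both 30 min libraries (1.74 and 0.838 points) and both 2 h libraries (1.17 and 6.66), and in the weakest bin in 2 h replicate 1 (4.02).

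The gap between members and regions called at both times narrowed with time. It was −24.4 and −25.3 percentage points at 0 h, −21.4 and −16.6 at 30 min, −17.5 and −13.7 at 1 h and −10.8 and −8.98 at 2 h, and libraries of 0 h and 2 h did not overlap. This trend passed the test (rho = 0.927, exact permutation p = 0.00317, adjusted p = 0.0190). Pearson's r was 0.943 (exact p = 0.00159, adjusted p = 0.00952), and 0.894 without the 2 h libraries. The 2 sets were split by their Ikaros calls at 0 h, so these tests cannot tell the trend apart from that choice. The CHD4 lists also differed in length. Holding CHD4 and Ikaros lists to equal length chose the sets anew, with 632 members and 1694 regions called at both times. There rho was 0.976 (adjusted p = 0.00476, exact test). On the log2 odds scale the gap went from −1.80 and −1.51 at 0 h to −0.65 and −0.67 at 2 h with the same rho, and in windows of equal width rho was again 0.927. The adjusted p of rho rose to 0.230 (rho = 0.586) among peaks with a −log10 q of at least 3, and to 0.0619 (rho = 0.878) within bins of 30 min strength or without merging the peaks. The first of these settings chose 398 members anew. Leaving out one CHD4 library gave rho from 0.899 to 0.973, and the adjusted p was 0.0571 without 30 min replicate 1 or 1 h replicate 2 and 0.0762 without any one of the 0 h and 2 h libraries. With members chosen and followed in replicate 1 alone or replicate 2 alone, which leaves 4 libraries, rho was 0.400 each time (exact permutation p = 0.750, adjusted p = 0.90).

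**Figure D4:**
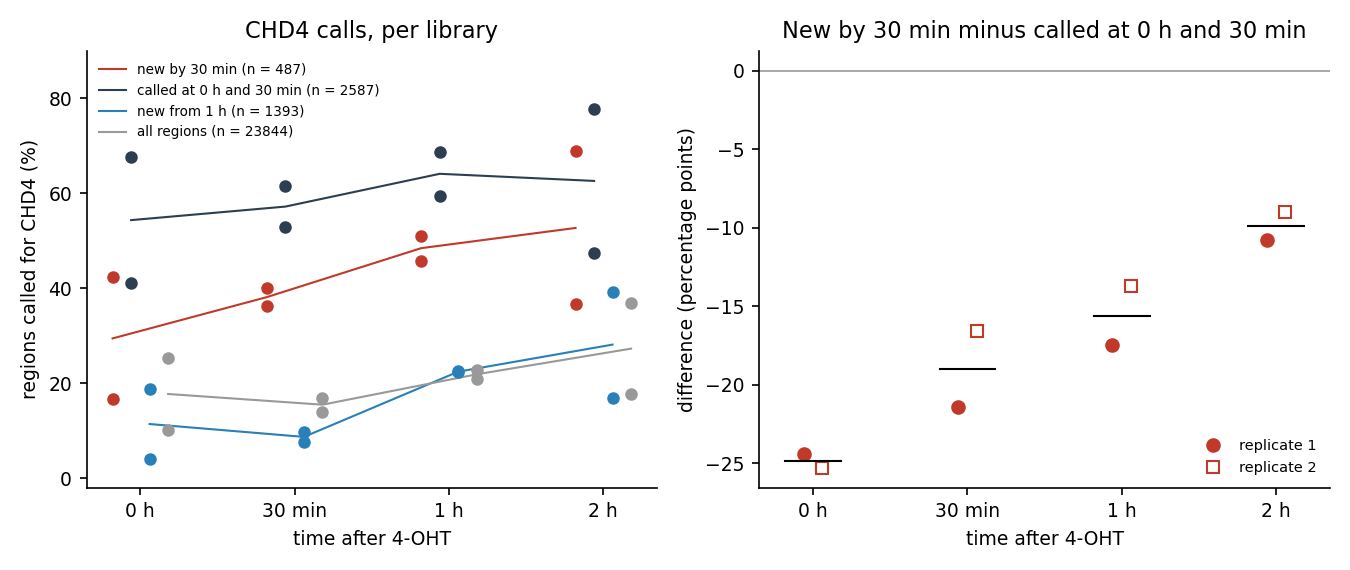
Left, percentage of regions called for CHD4 in each library (dots; lines join the means of 2 replicates) for 4 sets of regions by time after 4-OHT. Right, the difference in that percentage between members and regions called at 0 h and 30 min, per replicate with the mean as a bar, at −24.4 and −25.3 points for 0 h against −10.8 and −8.98 for 2 h.

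Region by region, 66 members (13.6%) had CHD4 in both 0 h lists, against 8.21% of all regions. CHD4 was first in both lists of a time at 30 min in 78 members, at 1 h in 79 and at 2 h in 35, and in 229 it never was. As shares these were 16%, 16.2%, 7.19% and 47.0% of members, and 15.8%, 11.8%, 5.72% and 28.9% of regions called at 0 h and 30 min. They were 1.72%, 7.54%, 6.89% and 81.0% of regions new from 1 h and 4.11%, 5.49%, 4.59% and 77.6% of all regions. It was called in both 30 min lists and neither 0 h list at 31 members (6.37%, and 1.13% of all regions), in both 1 h and neither 0 h list at 49 (10.1% against 2.90%) and in both 2 h and neither 0 h list at 44 (9.03% against 3.86%). The corresponding shares of regions called at 0 h and 30 min were 3.36%, 6.18% and 5.72%. The reverse, both 0 h and neither 2 h list, was found at 5 members (1.03% against 1.01%). CHD4 was in all 8 lists at 31 members (6.37% against 2.90%) and in none at 79 (16.2% against 45.4%). Counted within each replicate, CHD4 was called at 2 h and not at 0 h in 126 members (25.9% against 12.3% of all regions) for replicate 1 and 152 (31.2% against 19.2%) for replicate 2. In regions called at 0 h and 30 min it was 20.7% and 19.6%. The reverse held in 29 members (5.95% against 4.66%) and 23 (4.72% against 7.73%). At 1 h, 183 members gained the call and 15 lost it in replicate 1, against 85 and 68 in replicate 2. All regions gave 15.5% and 2.70%, then 8.38% and 12.9%. At 30 min the replicates went opposite ways. CHD4 was called then and not at 0 h in 134 members of replicate 1, with the reverse in 20, against 67 and 96 in replicate 2. All merged regions did so too, with 10.5% called then and not at 0 h and 3.59% the reverse in replicate 1, and 4.08% and 15.4% in replicate 2. The CHD4 lists held more peaks at 30 min than at 0 h in replicate 1 (4081 and 2488) and fewer in replicate 2 (3369 and 6000), and the part this played was not tested.

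Of the 31 members with CHD4 in both 30 min and neither 0 h list, 11 had it in both 1 h lists and 14 in both 2 h lists. The 31 were picked on their CHD4 calls, and the same was not counted for the 269 of all regions picked alike, so these counts are a description. Members that kept Ikaros in all 4 later lists held CHD4 more often than the others in every library, with means of 50.9% and 26.7% and a difference of 24.2 ± 9.19 points (SD, n = 8; exact sign-flip p = 0.00781). Promoter members held it less often than distal members, with means of 34.0% and 47.7% and a difference of −13.7 ± 4.26 points (lower in 8 of 8 libraries, exact p = 0.00781). With a −log10 q of at least 3 these differences were 6.46 and −2.43 points (adjusted p = 0.0156 each, exact test), and with lists of equal length the first was 15.7.

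Among the 44 members with CHD4 in both 2 h and neither 0 h list, the strongest CHD4 at 2 h was near Aes (also known as Tle5), a co-regulator of the Groucho family, 5417 bp from the TSS. CHD4 fold there was 3.47 and 3.59 at 30 min, 3.57 and 3.83 at 1 h and 3.79 and 4.03 at 2 h. Ikaros fold at Aes was 4.02 and 6.06, then 6.82 and 7.72, then 6.77 and 8.96, and H3K27ac was called in 1 of 8 lists. In an intron of Stk4, a kinase of the Hippo pathway, CHD4 was 2.99 and 3.50 at 30 min, 4.58 in 1 h replicate 2 and not called in replicate 1, and 3.99 and 3.81 at 2 h. The region nearest Gpc5, a glypican gene, lay 145754 bp upstream of it in an intron of a long non-coding RNA gene, and that nearest Zfp60, a zinc finger gene, 4434 bp upstream. CHD4 was called from 1 h on at both, with 3.79 and 3.42 at 2 h at the former and 3.49 and 3.49 at the latter. At the region nearest Chl1, an adhesion gene 170448 bp away, it was called at 30 min, in 1 h replicate 2 and at 2 h. These 4 regions were acetylated in 8 of 8 lists.

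Most members carried an H3K27ac call at every time, 0 h included, with a share between 90.6% and 95.1% in each library. H3K27ac was called at 93.2% and 91.0% of members at 0 h, 95.1% and 93.0% at 30 min, 93.4% and 91.2% at 1 h and 92.2% and 90.6% at 2 h. Over all merged regions the shares were 80.3% and 77.8% at 0 h, 83.4% and 78.9% at 30 min, 78.4% and 74.1% at 1 h and 77.0% and 75.2% at 2 h. The times overlapped at members and the trend did not pass (rho = −0.293, exact permutation p = 0.513, adjusted p = 0.616, with r = −0.359, exact p = 0.392, adjusted p = 0.470, and 0.0598 without the 2 h libraries). With lists of equal length rho was −0.810 (exact permutation p = 0.0214), which did not pass either (adjusted p = 0.0643, exact test). In all, 424 members (87.1% against 67.1% of all regions) were acetylated in 8 of 8 lists and 19 (3.90% against 12.6%) in none. The share was below that of regions called at 0 h and 30 min by library (difference −4.18 ± 1.07 points, means 92.5% and 96.6%) and above that of regions new from 1 h (8.59 ± 1.12 points, mean 83.9%), each in 8 of 8 libraries (SD, n = 8; exact p = 0.00781). Promoter members exceeded distal ones by 8.10 ± 1.49 points (means 97.3% and 89.2%) and members that kept Ikaros exceeded the others by 3.38 ± 1.78 points (93.7% and 90.3%), each in 8 of 8 libraries with exact p = 0.00781. With lists of equal length the differences from the 2 other sets were −2.49 and 5.67 points, and in windows of equal width −4.22 and 8.90.

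The strength of H3K27ac was compared by percentile rank of the fold among the 14715 acetylated regions called in all 8 lists, of which 419 overlapped a member. A region that lost its call at any time is outside this set, so the ranks cannot show such losses. Relative to acetylated regions without Ikaros, those at members ranked higher by 31.7 and 27.8 percentile points at 0 h, 30.0 and 29.9 at 30 min, 27.3 and 25.7 at 1 h and 28.6 and 26.0 at 2 h. The values of 0 h and 2 h overlapped and the trend did not pass (rho = −0.586, exact permutation p = 0.153, adjusted p = 0.286, with r = −0.557, exact p = 0.159, adjusted p = 0.238, and −0.662 without the 2 h libraries). At regions called at 0 h and 30 min the same measure went from 38.7 and 37.3 (0 h) to 31.4 and 32.1 (30 min), then 29.3 and 28.9 at 1 h and 29.1 and 28.6 at 2 h. Acetylated regions touching one set and not the other differed in rank, members minus the other set, by −9.51 and −12.2 points at 0 h, −3.27 and −4.09 at 30 min, −3.66 and −4.87 at 1 h and −1.96 and −4.36 at 2 h. Its trend did not pass by rho, and r did not pass after adjustment (rho = 0.586, exact p = 0.153, adjusted p = 0.286, with r = 0.702, exact p = 0.0460, adjusted p = 0.138, and 0.798 without the 2 h libraries).

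**Figure D5:**
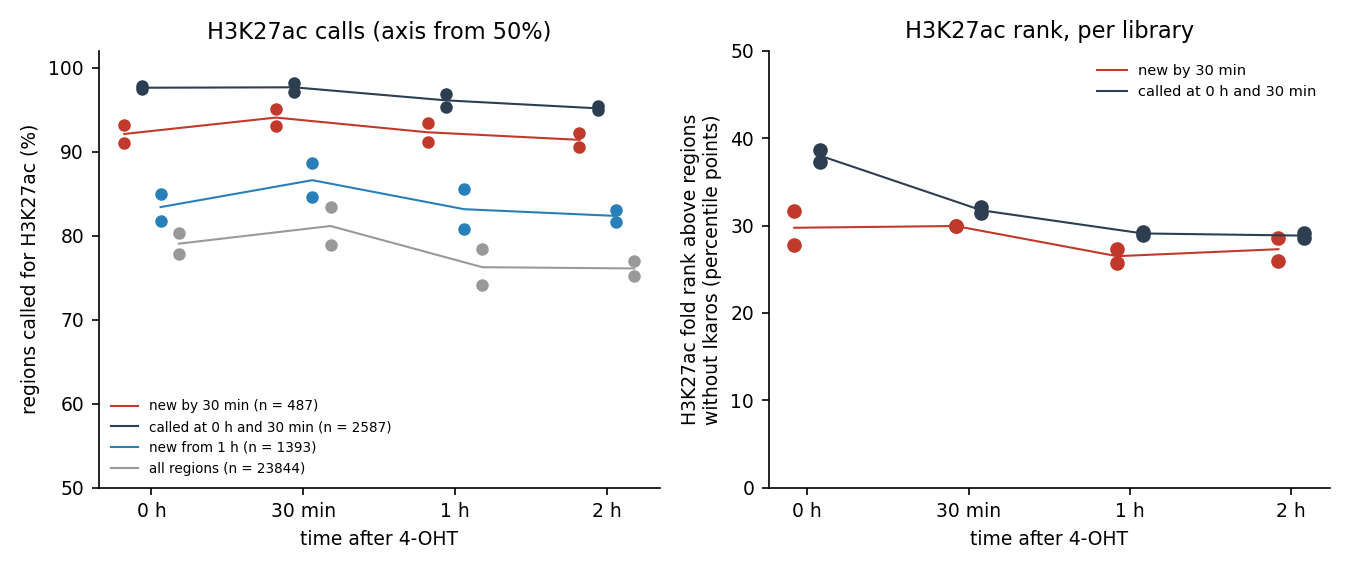
Left, percentage of regions called for H3K27ac in each library (dots; lines join the means of 2 replicates; axis from 50%) for 4 sets of regions. Right, mean percentile rank of the H3K27ac fold at members and at regions called at 0 h and 30 min, above acetylated regions without Ikaros, which is 31.7 and 27.8 points for members at 0 h and 28.6 and 26.0 at 2 h.

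Loss of the acetylation call was rare at members. H3K27ac was in both 0 h lists and neither 2 h list at 4 members (0.821% against 2.82% of all regions) and showed the reverse at 1 (0.205% against 1.04%). They lay in introns of Sema6b and Bcas3, upstream of Ccnd2 and between genes nearest Gpx5. At the region 2429 bp upstream of the TSS of Ccnd2, which encodes cyclin D2, in an intron of an antisense transcript, H3K27ac fold was 4.37 and 16.2 at 0 h and 19.4 and 4.49 at 30 min, and no peak was called at 1 h or 2 h. Ikaros fold there was 5.09 and 5.37 at 30 min, 5.40 and 4.02 at 1 h and 4.20 and 2.83 at 2 h, and CHD4 was in 4 lists. At Sema6b, a semaphorin gene, H3K27ac was called in 5 lists and CHD4 in 0, and at Bcas3 in 6 and 0. The reverse case lay in an intron of Dtx1, a ubiquitin ligase of Notch signalling, 1039 bp from the TSS. There H3K27ac was called in 30 min replicate 1 (4.65), at 1 h (5.67 and 3.61) and at 2 h (3.77 and 3.48), with CHD4 in 5 lists.

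Some members stood close to genes that matter for pre-B cells. A member lay within 20 kb of a TSS of 552 of 21924 protein-coding genes (2.52%). Of 15 genes of pre-B cell receptor signalling, 6 had one, and of 17 fast-repressed genes named in the study 4 did (23.5%). The second list was drawn by the study from these cells and is not independent of them. In the other lists the counts were 2 of 20 B-lineage regulators, 1 of 13 genes of IL-7 and STAT5 signalling, 1 of 15 cell cycle genes, 1 of 13 NuRD genes and 0 of 12 adhesion genes. Regions called at 0 h and 30 min were near 73.3% of the receptor list, 70.6% of the fast-repressed list and 12.9% of all genes. Regions new from 1 h were near 6.67% of the receptor list, 17.6% of the fast-repressed list and 8.12% of all genes.

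Within the receptor list, Blnk (an adaptor of the receptor) had a member 650 bp from its TSS, with Ikaros fold of 2.64 and 5.30 at 30 min, 5.05 and 5.88 at 1 h and 7.01 and 4.80 at 2 h and with CHD4 and H3K27ac in 8 of 8 lists each. Cd22, an inhibitory co-receptor, had one 177 bp from its TSS with CHD4 in 3 lists (30 min replicate 1 and both at 1 h) and H3K27ac in 8. Those at Pik3cd (a PI3-kinase subunit) and Pik3ap1 (its adaptor BCAP) had CHD4 in 4 and 6 lists. Those at Btk (a kinase) and Ptpn6 (the phosphatase SHP-1) had CHD4 in 0 lists and H3K27ac in 8, and Ikaros in 2 of the 4 later lists.

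Near the fast-repressed genes, the member at Myc, the growth-promoting transcription factor gene, was 1033 bp from the TSS. Its Ikaros fold was 7.83 and 3.43 at 30 min, 7.67 and 2.75 at 1 h and 4.95 and 5.09 at 2 h, with CHD4 in 1 list and H3K27ac in 8. The member in the coding part of Ccnd1, for cyclin D1, was called in replicate 2 alone at 1 h and 2 h (4.02 and 3.84), with CHD4 in 0 lists and H3K27ac in 6. The one within 20 kb of Gins2, a replication gene, had Gse1 as its nearest gene and held CHD4 and H3K27ac in 8 lists each. At Ebf1, a master regulator of the B lineage, an intronic member 18779 bp from the TSS also had 8 and 8. Its Ikaros fold was 6.00 and 5.13 at 30 min, 7.26 and 7.56 at 1 h and 4.38 and 7.15 at 2 h. At Lef1, which encodes a B cell transcription factor, CHD4 was in 2 lists. The member 108 bp from the TSS of Cdk1, the mitotic kinase, read 5.03 and 4.24, then 10.5 and 10.5, then 7.79 and 12.2, with CHD4 in 5 lists and H3K27ac in 8. The one at Socs3, a brake on cytokine signalling, was in 0 lists of either target, and the one near Mta1, a NuRD subunit, had Crip1 as its nearest gene and CHD4 in 1 list.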

How the data were processed

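ChIP-seq peak lists of HA-Ikaros, CHD4 and H3K27ac were used, 8 per target. Cells had been fixed with DSG and formaldehyde, which also holds proteins bound through others, so a call need not mean direct contact with DNA. According to the submitters' processing notes and the methods, the authors aligned reads to mm10 with Bowtie2 (2.4.2), processed alignments with Picard (2.23.7) and called peaks with MACS2 (2.2.7.1), as broad peaks for CHD4 and narrow peaks for the other targets, 1 list per library. Settings for 30 min are not given in the sources used here. Each deposited list gives the fold enrichment (a ratio) over local background, the −log10 of the p-value and q-value, a display score and, in narrow lists, the summit. The deposited score was not used. The lists hold no read counts, so no count model was run. Input libraries were not analysed here, and a marker gene of the cell type check is not reported here.

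Peaks were merged where they overlapped or touched, and a call needed an overlap of 1 bp. Coverage was recovered from fold and p over narrow peaks with −log10 p under 40, where at least 99.8% of background pileups were whole fragments within 0.05. It ranged from 1.98 to 3.59 fragments per base for Ikaros and 3.75 to 4.34 for H3K27ac. CHD4 lists do not allow this. Intervals of shares cover counting error only.

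Groups and replicates came from the sample titles. The members, gene lists and tests were chosen with earlier results of these data known. Each measure gave 1 value per library. Trends over time used exact two-sided permutation tests of Spearman's rho and Pearson's r over 8 libraries (6 trends, smallest p 7.94e-04), and set differences used exact two-sided sign-flip tests (8 differences), with Benjamini-Hochberg adjustment in each family and a threshold of 0.05. Merging, calls, tests and coverage were tested on simulated lists, the first 2 against bedtools 2.31.1. Genes came from GENCODE M21, and DNA letters from GRCm38.p6 with pysam 0.24.0, whose chromosomes are those of mm10. Calculations used NumPy 2.4.6, SciPy 1.17.1 and pandas 2.3.3.

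Named regions were the 8 with the highest mean 30 min fold rank, the 4 in no 1 h or 2 h list, the 5 with the highest 2 h CHD4 rank among those with CHD4 in both 2 h and neither 0 h list, up to 4 with H3K27ac lost and up to 4 with it gained between 0 h and 2 h, and those within 20 kb of a listed gene. Sequences were printed for the first 3 groups. Alternatives were a −log10 q or fold of at least 3, lists of equal length, 50% overlap, unmerged peaks, each replicate alone, a replicate block, other ranks and a 3 kb promoter. Those that change the lists, the overlap or the merging chose the members anew.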

Additional observations from a re-analysis of the deposited data

Results flagged for a closer look

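The trend of the CHD4 gap between members and regions called at both 0 h and 30 min was singled out because a test of the difference between the 2 sets of regions, made within the same 8 libraries, passed (rho = 0.927, adjusted p = 0.0190 by an exact permutation test). The gap was −24.4 and −25.3 percentage points at 0 h and −10.8 and −8.98 at 2 h. Because the 2 sets were split by their Ikaros calls at 0 h, the test cannot tell the trend apart from that choice. The CHD4 lists held 2488 and 6000 peaks at 0 h, 4081 and 3369 at 30 min, 5446 and 5027 at 1 h and 5523 and 9593 at 2 h. The lengths of 0 h and 2 h overlapped, and the depth of these libraries is unknown. With all CHD4 and Ikaros lists held to equal length and the sets chosen anew, rho was 0.976 (adjusted p = 0.00476 by the exact permutation test).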

How the results depend on the processing

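Of 126 values under other settings, 116 kept their direction, their side of the threshold or their size. That count leaves out each replicate alone and the removal of single libraries. Those gave 148 further values, of which 114 were kept, 24 no longer passed, 4 turned in direction and 6 moved in size. The trend of the CHD4 gap went from rho = 0.927 to 0.586 with a −log10 q of at least 3 (adjusted p = 0.230 by the exact permutation test) and to 0.878 both with unmerged peaks and within bins of 30 min strength. The last of these, the log2 odds ratio, windows of equal width, the removal of single libraries and of the 2 members of lowest fold, and the counts within a replicate were chosen after seeing the data. The trend of the share of CHD4 peaks at members, −0.0976, turned to 0.586 with a −log10 q of at least 3, 0.0488 with a fold of at least 3 and 0.195 with 50% overlap, and passed under none of them. The cause was not tested. The share of members in all 1 h and 2 h lists fell to 54.9% with a fold of at least 3 and to 28.0% with lists of equal length, and the promoter share was 49.7% at 3 kb. Lists of equal length moved rho of the CHD4 share of members from 0.537 to 0 and that of their H3K27ac share from −0.293 to −0.810, neither of which passed. Of 36 named regions, 27 were members with a −log10 q of at least 3 and 20 with lists of equal length.

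Replicate 2 alone gave 1481 members and replicate 1 alone 3819, of which 57.3% and 50% were in that replicate's 1 h and 2 h lists and 35.1% and 51.3% were promoters, so the rule rests on both. With a replicate or single libraries left out, rho ranged from 0.400 (either replicate alone) to 0.973 for the CHD4 gap, −0.404 to 0.312 for CHD4 peaks at members and −0.800 to 0.0184 for the H3K27ac share. The highest values came without CHD4 2 h replicate 1 (0.312) and without H3K27ac 2 h replicate 2 (0.0184), and CHD4 peaks at members gave 0.200 with either replicate left out. CHD4 differences ranged from −23.7 to −16.2 (members minus regions called at 0 h and 30 min), 10.8 to 26.2 (minus new from 1 h), 22.7 to 27.9 (kept minus other) and −14.8 to −7.48 points (promoter minus distal). The same for H3K27ac were −13.0 to −3.85, 5.11 to 8.89, 3.03 to 22.0 and 7.83 to 16.6. The value of 10.8 came without replicate 2, and those of −7.48, −13.0, 5.11, 22.0 and 16.6 without replicate 1, where the members themselves were chosen anew. With 4 libraries the exact sign-flip p cannot go below 0.125.

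The labels do not say whether same-numbered replicates were paired. The differences between the 2 replicates correlated between times at −0.0474 to 0.176 over CHD4 regions and −0.00853 to 0.0639 over H3K27ac regions, which does not settle it. With a replicate block rho for the CHD4 gap was 0.976 (adjusted p = 0.0208, exact permutation within replicates), and the block changed no other call.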
